A study of Mus musculus with 30 samples.

Results

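Lumbar dorsal root ganglia taken on day 2 from mice given cyclophosphamide were compared with ganglia taken on day 2 from mice given saline. The comparison holds 3 libraries of each group, 6 of the 30 in the series, and 25434 of the 56686 genes in the table were expressed highly enough to be tested. Both groups are wild type male C57BL/6J mice that were perfused with RNAlater, and ganglia L3 to L5 of both sides were taken. The age, the dose and the number of mice behind a library are not given in the sources used here, so p-values measure only the spread between these samples. Dexamethasone and CVAD on day 2, and cyclophosphamide with its own saline group on day 8, serve below as points of reference and are groups of 3 libraries from mice of the same strain, sex and genotype. CVAD is the name of the combination regimen that gives the series its title.

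A dorsal root ganglion holds the cell bodies of sensory neurons, each wrapped by satellite glia, with Schwann cells around the axons and vessels, macrophages and other immune cells between them. Cyclophosphamide is a prodrug that cytochrome P450 enzymes, mainly of the liver, oxidise to a mustard that crosslinks DNA, while aldehyde dehydrogenases divert it to an inactive acid. Its best known targets are dividing cells, above all those of the marrow and lymphoid organs, whereas neurons do not divide, and blood vessels of sensory ganglia are known to be leaky to circulating molecules.

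Expression is given as TPM, transcripts per 1e+06, a unit that allows for gene length but hides sequencing depth. Differences are log2 fold changes of TPM + 1 (cyclophosphamide minus saline) ± SE, from limma over all 30 libraries, and a gene is called when its Benjamini-Hochberg adjusted p over all tested genes is under 0.05. A gene listed at 0 may lack an estimate, since all 37 mitochondrial genes were at 0 in every library. In bulk tissue, fewer cells of a type and less RNA per cell cannot be told apart.

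Markers of the labelled tissue were checked first. The neuronal genes Prph, Tubb3, Avil, Isl1, Pou4f1, Scn10a and Nefh, the satellite glial genes Fabp7 and Kcnj10, and the Schwann cell genes Pmp22 and Prx were present in all 6 libraries, from 39.6 TPM (Kcnj10) to 366 TPM (Pmp22). Protein-coding genes took 67.0 ± 4.46% of the TPM after cyclophosphamide and 64.2 ± 3.62% after saline (SD, n = 3; exact permutation p = 0.5, 2-sided, where 3 against 3 libraries cannot go below 0.1). Libraries of the same group correlated at r = 0.961 to 0.971 over genes, and libraries of different groups at 0.956 to 0.973.

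The libraries carry numbers from 1 to 30, and those numbered 1 to 8 stood apart from the other 22. They include all 3 cyclophosphamide libraries of day 2 (4 to 6), whereas saline of day 2 is numbered 10 to 12. Genes of the rRNA type took 0.0471 to 0.112% of the TPM in libraries 1 to 8 and 0.0250 to 0.0458% in libraries 9 to 30, without overlap. In 28 tested genes all 8 libraries lay above all 22 others, and 19 of these were processed pseudogenes, intronless copies of mRNAs, while 0 were protein-coding. Between cyclophosphamide and saline of day 2, processed pseudogenes took 5.01% against 4.39% of the TPM, rRNA genes 0.0615% against 0.0317% and small nucleolar RNA genes 0.163% against 0.177%. Each of these had an exact permutation p of 0.1, the lowest possible, while the misc_RNA, miRNA and lncRNA types had 0.4 to 0.7. Dexamethasone on day 2 is the group that spans the divide, with replicates 1 and 2 numbered 7 and 8 and replicate 3 numbered 9. The drug and the library number therefore cannot be told apart in this comparison except through that group, and the 3 dexamethasone values are given below beside the results.

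**Figure D1:**
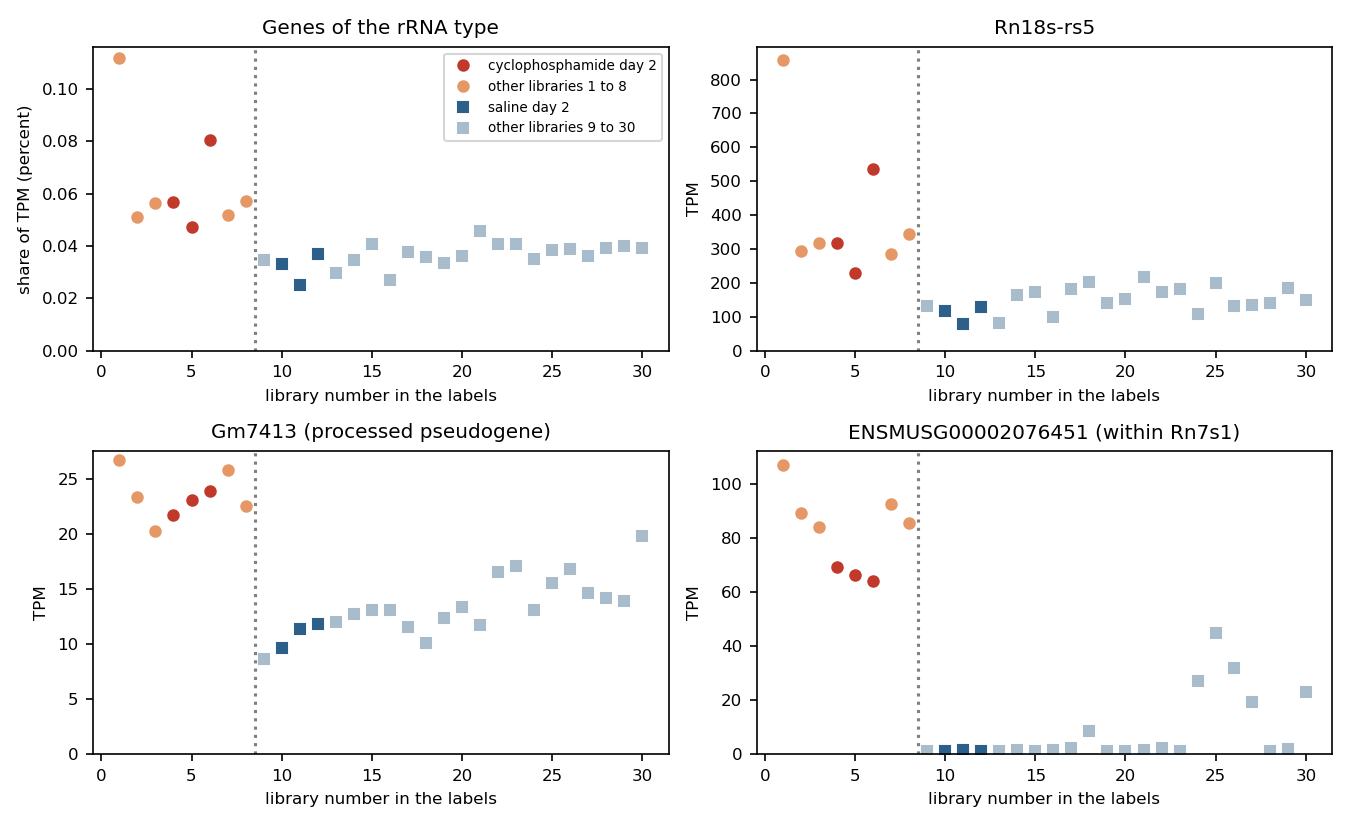
Each panel plots 1 quantity (y axis: percent of TPM or TPM) against the library number in the labels (x axis), 1 point per library, with a dotted line between libraries 8 and 9. The rRNA share of libraries 1 to 8 starts at 0.0471%, above the highest value of the others, 0.0458%, and the cyclophosphamide libraries of day 2 (red) are all left of the line while saline of day 2 (dark blue) is right of it.

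The test called 3 genes on day 2, which is 0.0118% of the tested genes (1 higher, 0.00393%, and 2 lower, 0.00786%), and none of the 3 codes for a protein. Gm22516, a small nucleolar RNA gene, fell. Gm50451, another small nucleolar RNA gene, was called higher, and ENSMUSG00002075948, an unnamed gene of the misc_RNA type, was called lower. The last 2 would not have met the filter of at least 1 TPM in at least 3 libraries without the group in which they are high. The filter fixed a difference for ENSMUSG00002075948. It favoured one for Gm50451, which was also above 1 TPM in a CVAD and a vincristine library of day 8. The values of both are given as a description. Gm22516 met the filter in other groups as well. Small nucleolar RNAs are mostly released from introns of host genes and guide the modification of ribosomal RNA or take part in its cleavage. Each of the 3 lies within a longer gene on the same strand, and reads of the inner gene and of the unspliced host transcript cannot be told apart in a table of TPM per gene.

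Gm22516 (ENSMUSG00000088891, 124 bases, chromosome 2) lies inside Gpr107, which encodes a membrane protein of the secretory pathway, and none of the Gpr107 exons in GENCODE M21 overlaps it. Its sequence is shown because it is the called gene with a measurable level in both groups. It was taken from the GENCODE M21 transcript sequences, and the GRCm38 annotation places it at chr2:31189691-31189814, plus strand. Lower case is used throughout since no motif is at issue.

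Gm22516: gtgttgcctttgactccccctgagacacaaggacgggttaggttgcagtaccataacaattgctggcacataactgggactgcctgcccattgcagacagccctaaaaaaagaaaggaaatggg

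Gm22516 stood at 0.744, 1.74 and 0 TPM in the cyclophosphamide libraries and at 7.90, 7.78 and 7.48 TPM in the saline libraries. Every cyclophosphamide library was below every saline library, and library 6 was the only one of all 30 at 0. The log2 fold change was -2.37 ± 0.39 (limma, Benjamini-Hochberg adjusted p = 0.023). Dexamethasone stood at 8.68 and 6.79 TPM in libraries 7 and 8 and at 9.06 TPM in library 9. CVAD of day 2, numbered within 1 to 8, stood at 6.56, 8.06 and 6.89 TPM. The host gene Gpr107 was at 81.4, 90.1 and 71.2 TPM after cyclophosphamide and 86.8, 89.6 and 88.9 TPM after saline, overlapping values with a log2 fold change of -0.13 ± 0.11 (limma adjusted p = 0.85). On day 8 Gm22516 was at 3.18, 6.40 and 7.30 TPM after cyclophosphamide against 4.26, 7.91 and 15.7 TPM after saline, now overlapping. The difference between its day 8 and day 2 responses was not called (limma adjusted p = 0.25).

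Gm50451 (chromosome 5, 71 bases) lies inside the long noncoding RNA gene AI506816. It stood at 5.13, 3.67 and 4.34 TPM after cyclophosphamide and was listed at 0 in all 3 saline libraries, a log2 difference of 2.42 ± 0.38 that carries no test here because the cyclophosphamide libraries brought the gene through the filter. It was above 0 in 6 of the 30 libraries, and the other three were 1 of CVAD and 2 of vincristine on day 8. Dexamethasone and CVAD on day 2 were listed at 0 in every library, and AI506816 itself was at 19.6, 24.4 and 23.3 TPM after cyclophosphamide and 15.4, 20.2 and 28.6 TPM after saline (0.10 ± 0.18).

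ENSMUSG00002075948 (chromosome 10, 263 bases) lies inside Rmst, a long noncoding RNA gene of the nervous system. Every cyclophosphamide library of day 2 listed it at 0, and it stood at 1.22, 1.34 and 1.19 TPM after saline, a log2 difference of -1.17 ± 0.17, again with no test because the saline libraries brought it through the filter. The 3 saline libraries of day 2 were the only ones of the 30 above 0, so the value sets these 3 libraries apart from the saline libraries of day 8 as well, and with saline of day 8 as the control the difference was 0. Rmst was at 0.687, 0.428 and 0.949 TPM after cyclophosphamide and 0.355, 4.34 and 11.1 TPM after saline, and these values overlapped (-1.41 ± 0.57, limma adjusted p = 0.59).

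The 3 calls did not hold under several alternatives, although the log2 fold changes stayed large. With a pseudocount of 0.1 no gene was called by limma (1887 genes at an unadjusted p under 0.05), while Gm22516 was at -3.86 with a limma adjusted p of 0.0508, Gm50451 at 5.47 and ENSMUSG00002075948 at -3.75. Leaving out cyclophosphamide replicate 1 or 3, or saline replicate 1 or 2, also left no call (limma; 1497, 2972, 1448 and 1469 genes at an unadjusted p under 0.05). Without cyclophosphamide replicate 2 Gm22516 and ENSMUSG00002075948 were called, and without saline replicate 3 ENSMUSG00002075948 alone. Over the fits that left out 1 library, the log2 fold change ran from -2.72 to -1.995 for Gm22516, from 2.32 to 2.52 for Gm50451 and from -1.19 to -1.14 for ENSMUSG00002075948.

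**Figure D2:**
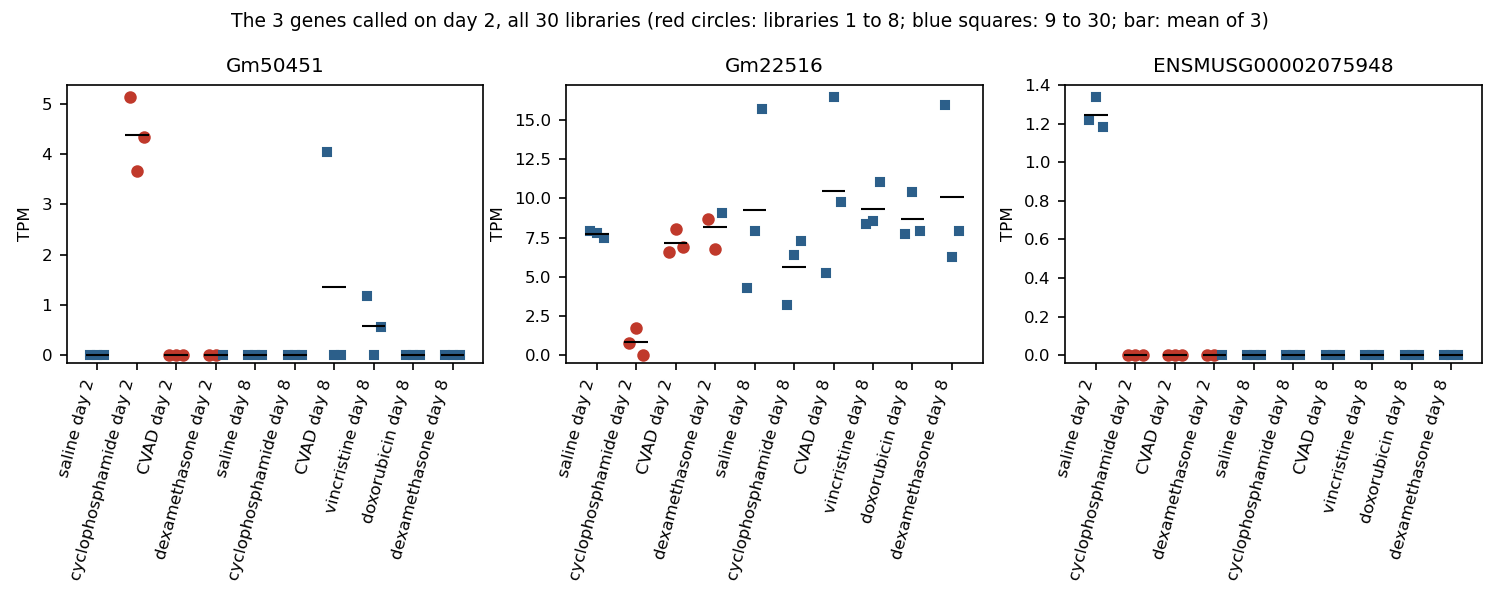
TPM (y axis, linear) of the 3 called genes in the 10 groups of the series (x axis), 1 point per library with the mean of 3 as a bar; red circles are libraries 1 to 8. Gm50451 is high in the 3 cyclophosphamide libraries of day 2 (3.67 to 5.13 TPM), Gm22516 is low in the same libraries (0 to 1.74 TPM), and ENSMUSG00002075948 is above 0 in saline of day 2 alone.

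Below the threshold, differences leaned to one side. An unadjusted p under 0.05 was found for 1909 genes (7.51%), of which 1520 were higher after cyclophosphamide (5.98% of those tested) and 389 lower (1.53%). The higher genes were thus 79.6% of the 1909, but 52.4% of 1999 after median-ratio scaling of the libraries and 60.3% of 1948 after scaling to the protein-coding sum, and the median over all genes moved from 0.062 to -0.00038 and 0.0076. Groups did not overlap in 2167 genes with cyclophosphamide higher (8.52%) and in 750 with it lower (2.95%). Of those 2167, 1527 (70.5%) also had both dexamethasone libraries numbered 7 and 8 above the one numbered 9, against 48.0% of all tested genes. Of the 750, 311 (41.5%) had both below it, against 18.7% of all. Among protein-coding genes tested alone, 0 of 15314 were called by limma and 1011 had an unadjusted p under 0.05.

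The 8 genes of smallest p among those higher after cyclophosphamide, leaving out predicted models, were Ndufs5-ps, Mcpt4, Leo1, Rn18s-rs5, Rps23, Rpl19-ps11, Skida1 and Rps2-ps10, all with limma adjusted p of 0.20 to 0.23. Rn18s-rs5, a copy of 18S ribosomal RNA, stood at 319, 229 and 535 TPM against 116, 79.3 and 128 TPM after saline (1.67 ± 0.40). Its groups did not overlap, and dexamethasone was at 286 and 345 TPM in libraries 7 and 8 and 132 TPM in library 9. Leo1, which encodes a subunit of the PAF1 complex of transcription elongation, stood at 21.4, 23.01 and 17.4 TPM against 11.9, 10.5 and 11.1 TPM (0.82 ± 0.19), with dexamethasone at 23.9, 14.2 and 11.2 TPM. In all 8 of these genes dexamethasone libraries 7 and 8 lay above library 9, the side on which the cyclophosphamide libraries lay.

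The 8 lower genes of smallest p were Scarna6, Mir684-2, Mir5616, Skil, Olfr1033, Mir1938, Mir494 and Neat1 (limma adjusted p 0.23 to 0.40), and in 5 of them dexamethasone libraries 7 and 8 lay below library 9. Skil, which encodes SnoN, a repressor of TGF-beta signalling, is one of the other three: it stood at 18.2, 20.7 and 19.2 TPM after cyclophosphamide and 26.7, 31.8 and 36.9 TPM after saline (-0.68 ± 0.18), without overlap, and at 31.2, 24.9 and 18.4 TPM after dexamethasone. Neat1, the RNA scaffold of nuclear paraspeckles, stood at 53.8, 58.2 and 56.4 TPM against 67.3, 83.3 and 94.6 TPM (-0.52 ± 0.16), also without overlap, with dexamethasone at 60.7, 52.1 and 82.8 TPM. Scarna6, a guide RNA of Cajal bodies, was at 9.65, 12.97 and 11.8 TPM against 22.7, 25.3 and 25.3 TPM, and dexamethasone libraries 7 and 8, at 9.15 and 7.33 TPM, matched the low values while library 9, at 21.1 TPM, matched the high ones.

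A model with a term for libraries 1 to 8, which rests on dexamethasone alone, called 12 genes for the term (0.0472%) and 3 for cyclophosphamide. None of these 3 is among the genes called without it. They were AU022252, Map4k1 and Gpr160, and their level was near that of saline before the term was fitted. AU022252 stood at 41.3, 44.6 and 36.6 TPM after cyclophosphamide and 37.4, 39.2 and 38.7 TPM after saline, while dexamethasone was at 41.6, 44.5 and 15.2 TPM. Map4k1 was at 3.01, 4.64 and 4.28 TPM after cyclophosphamide and 3.48, 2.92 and 4.83 TPM after saline, and dexamethasone was at 4.10, 7.81 and 0 TPM. In both, the single low library is dexamethasone replicate 3, so the estimate with the term is set by that library, and it is given below only as a second value.

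Genes that DNA damage induces through p53 showed no call. Of 28 tested p53 targets, 14 had a log2 fold change above 0 and 14 below (64.7% and 34.3% of all tested genes), with a median of 0.0024 against 0.062 for all tested genes, and 1 had an unadjusted p under 0.05 (Plk2, 0.22 ± 0.10, limma adjusted p = 0.66). Cdkn1a, which encodes the cell cycle inhibitor p21, stood at 83.1, 79.4 and 86.5 TPM after cyclophosphamide and 84.5, 87.3 and 113 TPM after saline. The 2 ranges overlapped, and the 95% interval of the Cdkn1a log2 difference ran from -0.52 to 0.16. Mdm2, which encodes the ligase that degrades p53, stood at 54.9, 53.9 and 56.0 TPM against 59.0, 58.9 and 60.7 TPM, slightly lower in all 3 libraries (interval -0.32 to 0.09). Bax, a mediator of cell death, had an interval of -0.21 to 0.25. For 26 of the 28 targets the whole interval lay within 1 log2 unit of 0.

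Repair genes for crosslinks and alkylated bases had a median of 0.13, with 16 of 23 above 0 beside 64.7% of all tested genes, and 0 called. Palb2, which loads the recombinase at breaks, was at 3.10, 3.42 and 5.07 TPM after cyclophosphamide and 1.49, 2.41 and 2.80 TPM after saline, without overlap (0.59 ± 0.23, limma adjusted p = 0.55). Ercc1, a subunit of the nuclease that unhooks crosslinks, was at 45.0, 62.7 and 44.4 TPM against 40.1, 34.2 and 44.3 TPM (0.34 ± 0.17, limma adjusted p = 0.67). The Ercc1 groups did not overlap, but 2 cyclophosphamide libraries lay only just above the highest saline one. Mgmt, which removes alkyl groups from guanine, was at 2.81, 3.29 and 3.52 TPM against 3.39, 3.32 and 2.80 TPM and overlapped. With the term the median of the list was -0.22, and on day 8 it was -0.12.

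Enzymes that activate or detoxify the drug likewise held no called gene, with 11 of 20 above 0 beside 64.7% of all tested genes and a median of 0.018. Aldh1a1, the aldehyde dehydrogenase best known for inactivating aldophosphamide, had the smallest p of this list. It stood at 24.3, 28.2 and 41.5 TPM after cyclophosphamide and at 43.9, 57.7 and 61.9 TPM after saline. The groups did not overlap, and the log2 fold change was -0.80 ± 0.32 (limma adjusted p = 0.58). Dexamethasone ranged widely, at 50.5, 17.5 and 52.7 TPM, and on day 8 cyclophosphamide was at 30.5, 55.9 and 44.7 TPM against 49.3, 24.9 and 32.9 TPM after saline, overlapping. Por, the electron donor of cytochrome P450 enzymes, was at 71.1, 70.8 and 66.4 TPM against 64.5, 62.7 and 69.1 TPM, and Cyp2b10, a mouse enzyme of the family that activates the drug, was at 0, 0 and 0.955 TPM against 0, 1.28 and 1.76 TPM. The glutathione transferase Gstp1 (-0.03 ± 0.09) had an interval of -0.22 to 0.17. In the list of 15 NRF2 and glutathione genes, 13 were above 0 beside 64.7% of all tested genes, with a median of 0.096, and 0 were called.

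**Figure D3:**
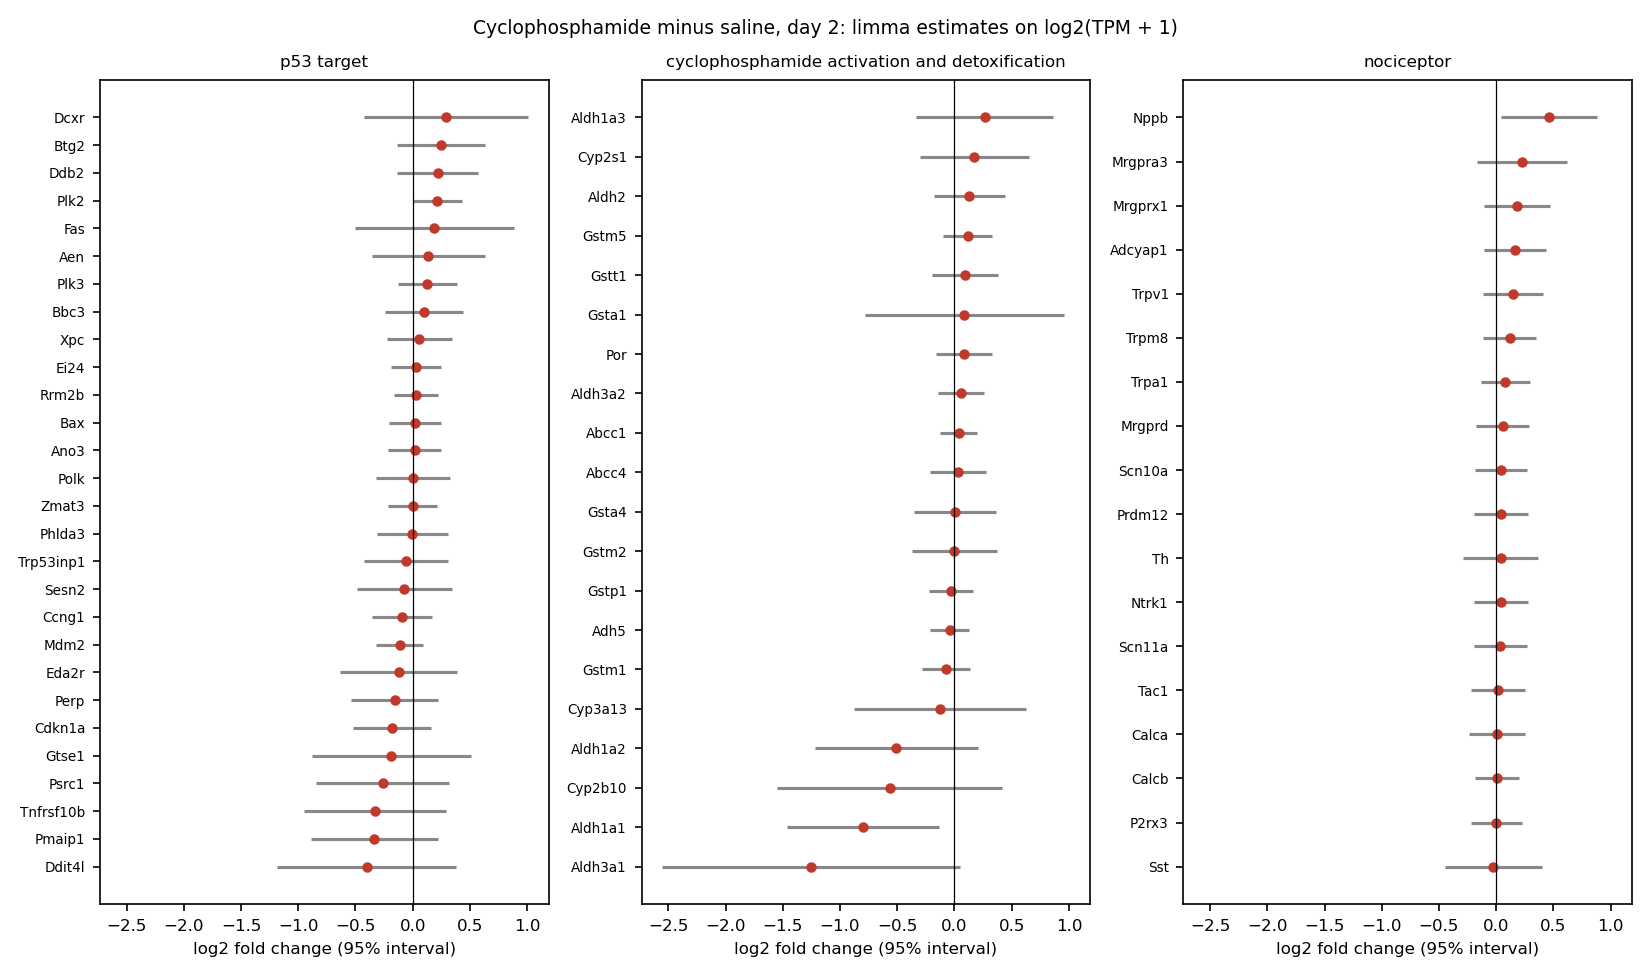
Log2 fold changes (x axis; cyclophosphamide minus saline, points) with 95% intervals (lines) from limma for the tested members of 3 lists: p53 targets, enzymes of cyclophosphamide activation and detoxification, and nociceptor genes. Cdkn1a spans -0.52 to 0.16 and Calca -0.24 to 0.25, and Aldh1a1 (-1.47 to -0.13) and Aldh3a1 have the lowest point estimates of their list.

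Sensory neuron genes varied little between libraries. Over 18 nociceptor genes the median SE was 0.115, every interval lay within 1 log2 unit of 0, the median log2 fold change was 0.044, and 0 were called. Of these 18, 17 were above 0 beside 64.7% of all tested genes. Calca, which encodes the neuropeptide CGRP, stood at 294, 260 and 203 TPM after cyclophosphamide and 238, 256 and 252 TPM after saline. The cyclophosphamide values lay on both sides of the saline ones, with an interval of -0.24 to 0.25. Trpv1, the heat and capsaicin receptor, stood at 97.3, 92.4 and 73.7 TPM against 71.9, 77.9 and 87.0 TPM (interval -0.12 to 0.41), and Scn10a, the sodium channel Nav1.8, at 303, 279 and 219 TPM against 246, 268 and 254 TPM (-0.18 to 0.27). Nppb, a peptide of itch neurons, was the only nociceptor gene with an unadjusted p under 0.05: it stood at 25.3, 24.5 and 14.2 TPM against 12.8, 14.7 and 17.01 TPM, with replicate 3 inside the saline range (0.46 ± 0.20, limma adjusted p = 0.64). The 14 genes of large-diameter neurons had a median of 0.077, the 19 ion channels tied to pain 0.076 and the 20 tubulin and axonal transport genes 0.067, each near the 0.062 of all genes, with 0 called. In these lists 12 of 14, 18 of 19 and 18 of 20 genes were above 0, more than the 64.7% of all tested genes.

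No glial list held a called gene. The 12 satellite glial genes had a median of 0.050, close to that of all genes. The 14 genes of myelinating Schwann cells had a median of -0.10, with 10 of 14 below 0 beside 34.3% of all tested genes, and 0.075 with the term. The 10 tested genes of repair Schwann cells had a median of 0.046, with 6 above 0 and 4 below, beside 64.7% and 34.3% of all tested genes. The 2 repair genes of smallest p differed in opposite directions. Sox2, a transcription factor of immature Schwann cells and satellite glia, stood at 29.2, 27.4 and 24.3 TPM after cyclophosphamide and 18.04, 21.1 and 22.2 TPM after saline. Its groups did not overlap (0.38 ± 0.09, limma adjusted p = 0.23), and dexamethasone was at 25.7, 27.6 and 22.7 TPM. Olig1, a transcription factor of oligodendrocytes, stood at 0, 0.317 and 0.962 TPM against 1.19, 6.12 and 8.86 TPM, lower without overlap (-1.96 ± 0.75, limma adjusted p = 0.55), with saline replicates 2 and 3 high.

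Of 18 tested genes that nerve injury induces, 13 were below 0 beside 34.3% of all tested genes. Lower without overlap were 4, beside 2.95% of all, and 0 were called (median -0.15, and -0.19 with the term). Atf3, the transcription factor used as a marker of axon damage, stood at 7.47, 9.85 and 9.14 TPM after cyclophosphamide and 16.8, 12.6 and 27.1 TPM after saline. All 3 cyclophosphamide libraries were lower (-0.96 ± 0.33, limma adjusted p = 0.53), dexamethasone stood between, at 11.04, 10 and 10.1 TPM, and with the term the Atf3 estimate was -1.01. Gpr151, an orphan receptor of injured neurons, was at 1.58, 1.74 and 0.991 TPM against 4.13, 3.15 and 4.17 TPM (-0.99 ± 0.33, limma adjusted p = 0.50). Sox11, a transcription factor of regrowing axons, overlapped, at 11.1, 11.9 and 11.4 TPM against 13.1, 11.04 and 16.5 TPM, and Gal, the neuropeptide galanin, was at 45.5, 48.5 and 29.8 TPM against 40.1, 33.2 and 47.9 TPM (0.02 ± 0.17).

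The spinal cord list had the lowest median of the 40, -1.25, with 10 of 11 tested genes below 0 beside 34.3% of all tested genes. Of the 11, 6 were lower at an unadjusted p under 0.05 (limma), beside 1.53% of all. Lower without overlap were 4, beside 2.95% of all, and 0 were called. Mobp, a myelin gene of oligodendrocytes, stood at 0.961, 1.74 and 11.7 TPM after cyclophosphamide and 10.9, 60.1 and 68.0 TPM after saline. Slc1a2, the glutamate transporter of astrocytes, stood at 2.75, 3.48 and 5.61 TPM against 6.03, 21.2 and 39.97 TPM (-1.95 ± 0.65, limma adjusted p = 0.48), and Slc6a5, the glycine transporter of inhibitory neurons, at 0, 0.145 and 0.481 TPM against 0.619, 5.21 and 6.11 TPM. Saline replicates 2 and 3 were the high libraries in each of these genes. Summed over the list, saline held 131, 231 and 261 TPM and cyclophosphamide 113, 129 and 133 TPM, while saline on day 8 held 153, 102 and 115 TPM. The sums also hold list members that stay high where Mobp and Slc1a2 are low, so they do not measure spinal cord content alone. Saline replicate 2 of day 8, with the sum of 102 TPM, had Mobp at 0 and Slc1a2 at 3.31 TPM. The astrocyte gene Aqp4 was listed at 0 in all 30 libraries. The same order of the saline libraries was seen in Rmst, Gfap (5.66, 16.6 and 51.9 TPM in saline) and Olig1 (1.19, 6.12 and 8.86 TPM). The part of spinal cord tissue in these differences was not tested beyond a fit with the list's score as a covariate, in which 0 genes were called by limma and 1521 had an unadjusted p under 0.05.

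Genes of eosinophils and mast cells had the highest median, 0.90, with 9 of 10 above 0 beside 64.7% of all tested genes. Higher without overlap between the groups were 6, beside 8.52% of all, and 0 were called. Mcpt4, a chymase of connective tissue mast cells, stood at 20.9, 24.7 and 20.5 TPM after cyclophosphamide and 13.6, 11.3 and 8.20 TPM after saline (0.96 ± 0.22, limma adjusted p = 0.23). The eosinophil granule genes Prg2 and Epx followed. Prg2 stood at 28.6, 49.4 and 22.1 TPM against 8.38, 6.35 and 19.8 TPM (1.53 ± 0.59, limma adjusted p = 0.55), and Epx at 3.26, 7.20 and 2.999 TPM against 0.355, 0.523 and 1.83 TPM (1.53 ± 0.54, limma adjusted p = 0.54). Dexamethasone divided with the library numbers in both: Prg2 was at 26.4 and 23.7 TPM in libraries 7 and 8 and 7.47 TPM in library 9, and Epx at 4.96, 3.58 and 0 TPM. With the term the list's median was -0.15, and with saline of day 8 as the control, where Prg2 was at 46.6, 37.5 and 20.6 TPM, it was -0.064. Epx turned its sign in both fits. The mast cell genes Mcpt4 and Cma1 (0.65 ± 0.24, limma adjusted p = 0.55) kept theirs in both. Dexamethasone Mcpt4 was also higher in libraries 7 and 8 than in library 9, but library 9, at 15.6 TPM, lay above every saline library of day 2. On day 8 the list's median for cyclophosphamide against its own saline was -1.47, with 8 of 10 below 0.

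Adipocyte and bone genes, tissues that lie around the ganglia, were placed alike. All 9 tested adipocyte genes were above 0 beside 64.7% of all tested genes (median 0.78), 4 were higher without overlap beside 8.52% of all, and 0 were called. Cfd, the adipocyte protease adipsin, stood at 80.8, 59.2 and 57.5 TPM after cyclophosphamide and 21.95, 20.9 and 43.5 TPM after saline (1.23 ± 0.42, limma adjusted p = 0.52), and Adipoq, the hormone adiponectin, at 12.3, 9.04 and 11.2 TPM against 3.91, 3.78 and 7.01 TPM. Dexamethasone libraries 7 and 8 were again at the cyclophosphamide level of Cfd (60.5 and 58.2 TPM) and library 9 near the saline level (27.7 TPM). With the term the adipocyte median was 0.15, and with saline of day 8 as the control it turned its sign. The adipocyte sums were 174, 142 and 162 TPM after cyclophosphamide and 60.0, 74.5 and 146 TPM after saline, so saline replicate 3 lay within the cyclophosphamide range. All 12 bone and cartilage genes were above 0 beside 64.7% of all tested genes (median 0.50, and 0.13 with the term). Bglap, the bone protein osteocalcin, stood at 33.6, 46.8 and 8.95 TPM against 0, 1.98 and 38.5 TPM, overlapping widely. Skeletal muscle genes had the largest median SE of the 40 lists, 1.52, and their sum was 149, 957 and 965 TPM after cyclophosphamide and 107, 713 and 1609 TPM after saline.

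**Figure D4:**
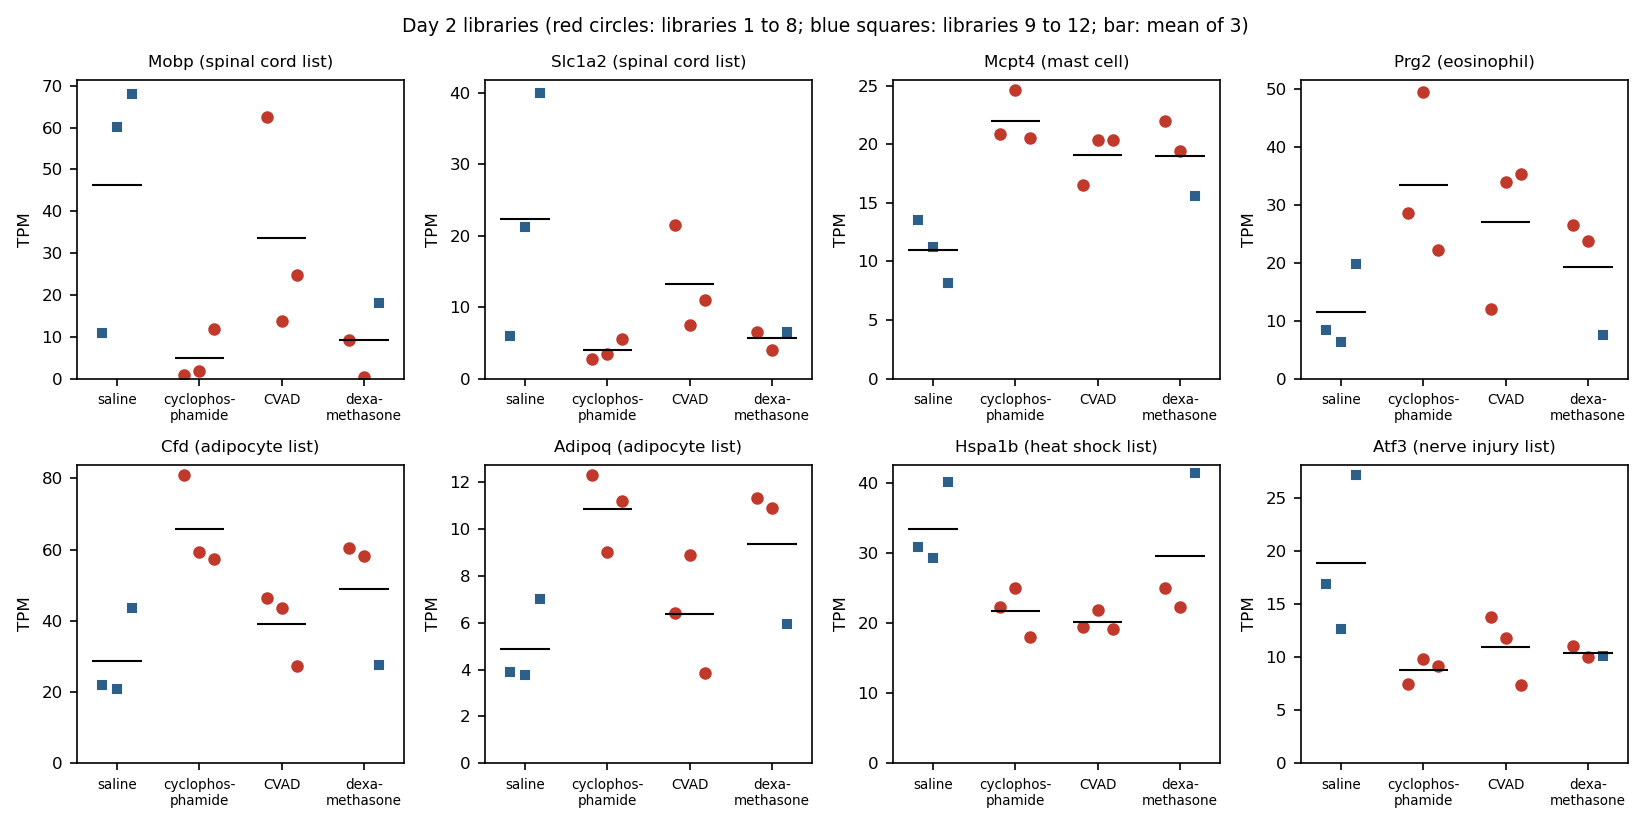
TPM (y axis, from 0) of 8 genes in the 12 libraries of day 2 (x axis: group), with red circles for libraries 1 to 8, blue squares for libraries 9 to 12 and the mean of 3 as a bar. Dexamethasone library 9 (blue) lies at the saline level and apart from libraries 7 and 8 for Cfd (27.7 TPM) and Hspa1b (41.4 TPM), while for Mobp saline itself spans 10.9 to 68.0 TPM.

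Blood and dividing cells, the usual targets of the drug, showed no called gene. Of 32 cell division genes 28 were above 0 beside 64.7% of all tested genes (median 0.25). Mki67, the proliferation antigen, stood at 5.45, 11.3 and 9.86 TPM after cyclophosphamide and 3.32, 4.25 and 8.10 TPM after saline (0.69 ± 0.48, limma adjusted p = 0.80). The groups overlapped, and dexamethasone Mki67 was at 11.8, 11.1 and 2.51 TPM. With the term the median was -0.49 with 29 of 32 below 0, and on day 8 it was -0.66 with 31 of 32 below 0. The 22 replication-dependent histone genes went the same way, with medians of 0.26, -0.30 with the term and -0.47 on day 8. Of 16 tested genes of neutrophils and their precursors, 8 were above 0 and 8 below, beside 64.7% and 34.3% of all tested genes (median 0.015). S100a8 and S100a9 were listed at 0 in all 30 libraries. Mpo, the peroxidase of granulocyte precursors, stood at 7.45, 14.2 and 10.5 TPM against 6.00, 9.12 and 12.7 TPM, and Ngp, a granule protein gene, at 52.4, 65.6 and 51.0 TPM against 43.5, 47.6 and 63.7 TPM, overlapping in both. Against saline of day 8, in which Ngp was at 87.1, 102 and 120 TPM, the list's median was -1.04, and Ngp lay below that range in both groups of day 2. Medians were 0.22 for 12 B lineage genes, 0.15 for 8 of T and NK cells and 0.20 for 13 erythroid genes, with 0 called. With the term these medians were -0.84, -0.57 and -0.68, and that of the neutrophil list was -0.96. On day 8 the B lineage median was -0.40, that of T and NK cells -0.45, the erythroid one 0.43 and the neutrophil one -0.92.

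Macrophage genes had a median of 0.080 with 13 of 20 above 0 beside 64.7% of all tested genes. The 3 macrophage genes of smallest p went in different directions. Ccr2, the receptor that brings monocytes into tissue, stood at 9.49, 9.67 and 14.3 TPM against 6.96, 5.81 and 8.35 TPM, without overlap (0.59 ± 0.25, limma adjusted p = 0.61). Itgam, the integrin chain CD11b, stood lower at 2.37, 1.82 and 3.14 TPM against 2.72, 5.78 and 6.21 TPM, overlapping (-0.74 ± 0.37, limma adjusted p = 0.67). Aif1, which encodes the microglial and macrophage protein IBA1, stood at 4.76, 4.42 and 4.43 TPM against 8.93, 7.52 and 6.55 TPM, lower without overlap (-0.64 ± 0.33, limma adjusted p = 0.70). Dexamethasone Aif1 lay between, at 6.32, 5.92 and 5.84 TPM. The 8 MHC class II genes had a median of 0.38, and H2-Ab1, which encodes a class II beta chain, stood at 79.5, 71.9 and 82.4 TPM against 42.4, 38.5 and 61.6 TPM (0.73 ± 0.28, limma adjusted p = 0.55). Dexamethasone H2-Ab1 was at 92.0 and 91.2 TPM in libraries 7 and 8 and 43.9 TPM in library 9, and the list's median was -0.34 with the term. All 22 interferon response genes were above 0 beside 64.7% of all tested genes (median 0.19). Of the 22, 0 were higher without overlap beside 8.52% of all, and 0 were called. Isg15, the interferon-induced ubiquitin-like protein, stood at 25.8, 19.4 and 17.1 TPM against 7.23, 9.33 and 20.2 TPM, where saline replicate 3 reached the cyclophosphamide values (0.82 ± 0.29, limma adjusted p = 0.54). The interferon median was -0.092 with the term and -0.34 on day 8, when all 22 were below 0. Cxcl10, an interferon-induced chemokine, stood at 8.31, 6.57 and 5.26 TPM against 3.05, 3.79 and 3.49 TPM (0.78 ± 0.37, limma adjusted p = 0.66), with dexamethasone at 7.50, 6.67 and 3.20 TPM. Ccl2, a monocyte chemokine, overlapped, at 8.19, 6.78 and 9.64 TPM against 8.99, 7.13 and 9.87 TPM, and 16 cytokine and chemokine genes had a median of 0.079.

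Of 13 heat shock genes 8 were below 0 beside 34.3% of all tested genes, with a median of -0.16. Lower without overlap were 5, beside 2.95% of all, and 0 were called. Hspa1b, an inducible HSP70 gene, stood at 22.2, 25.02 and 18.04 TPM after cyclophosphamide and 30.8, 29.2 and 40.1 TPM after saline (-0.59 ± 0.18, limma adjusted p = 0.41). Its near-identical copy Hspa1a, whose reads may be shared with it, stood at 21, 26.3 and 21.2 TPM against 31.2, 30.5 and 45.2 TPM. Dexamethasone Hspa1b was at 24.96 and 22.2 TPM in libraries 7 and 8 and 41.4 TPM in library 9, and with the term the Hspa1b estimate was 0.19 and the list's median 0.085. Hsp90aa1, an HSP90 chaperone gene of the same list, overlapped, at 311, 322 and 274 TPM against 284, 292 and 296 TPM.

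Glucocorticoid response genes had a median of -0.059 (14 of 20 below 0 beside 34.3% of all tested genes). Saline replicate 3 set the sign of this median: without that library it was 0.13. Fkbp5, whose protein binds the steroid receptor complex through HSP90, stood at 54.5, 56.3 and 60.8 TPM after cyclophosphamide and 45.5, 49.8 and 96.5 TPM after saline, and Zbtb16, another induced gene, at 16.99, 22.2 and 26.01 TPM against 10.9, 10.6 and 68.6 TPM. In both genes the third saline library lay above all 3 cyclophosphamide libraries and the other saline libraries below them. The metallothionein Mt2 stood at 41.7, 36.3 and 38.5 TPM against 41.6, 57.5 and 85.2 TPM (-0.59 ± 0.25, limma adjusted p = 0.61).

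Housekeeping lists held no called gene. The 20 ribosomal protein genes had a median of 0.030, with 4 higher without overlap beside 8.52% of all tested genes. Rpl19 stood at 111, 111 and 99.8 TPM against 84.2, 84.3 and 88.1 TPM (0.32 ± 0.10, limma adjusted p = 0.38), and dexamethasone was at 99.8, 111 and 82.0 TPM. All 16 cholesterol synthesis genes were above 0 beside 64.7% of all tested genes (median 0.16), 0 of them without overlap, and 5 were below 0 with the term. The 17 respiratory chain genes had a median of 0.013.

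Over the 40 lists, which hold 657 different genes (614 of them tested), 0 held a called gene. The median turned its sign in 26 lists when the term for libraries 1 to 8 was added, and in 17 lists when at least 1 of the 6 libraries was left out. The medians of the eosinophil and mast cell, adipocyte, bone, MHC class II, interferon, cell division, nerve injury, heat shock and spinal cord lists, among others, kept their sign without any 1 library. Of those named, eosinophil and mast cell, MHC class II, interferon, cell division and heat shock turned with the term. With saline of day 8 as the control, eosinophil and mast cell, adipocyte, MHC class II, interferon, cell division and spinal cord turned. The day 8 response to cyclophosphamide, measured in other libraries, had 2 called genes (0.00786%), and the difference between the day 8 and day 2 responses had 0 (limma; 2430 genes at an unadjusted p under 0.05).

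**Figure D5:**
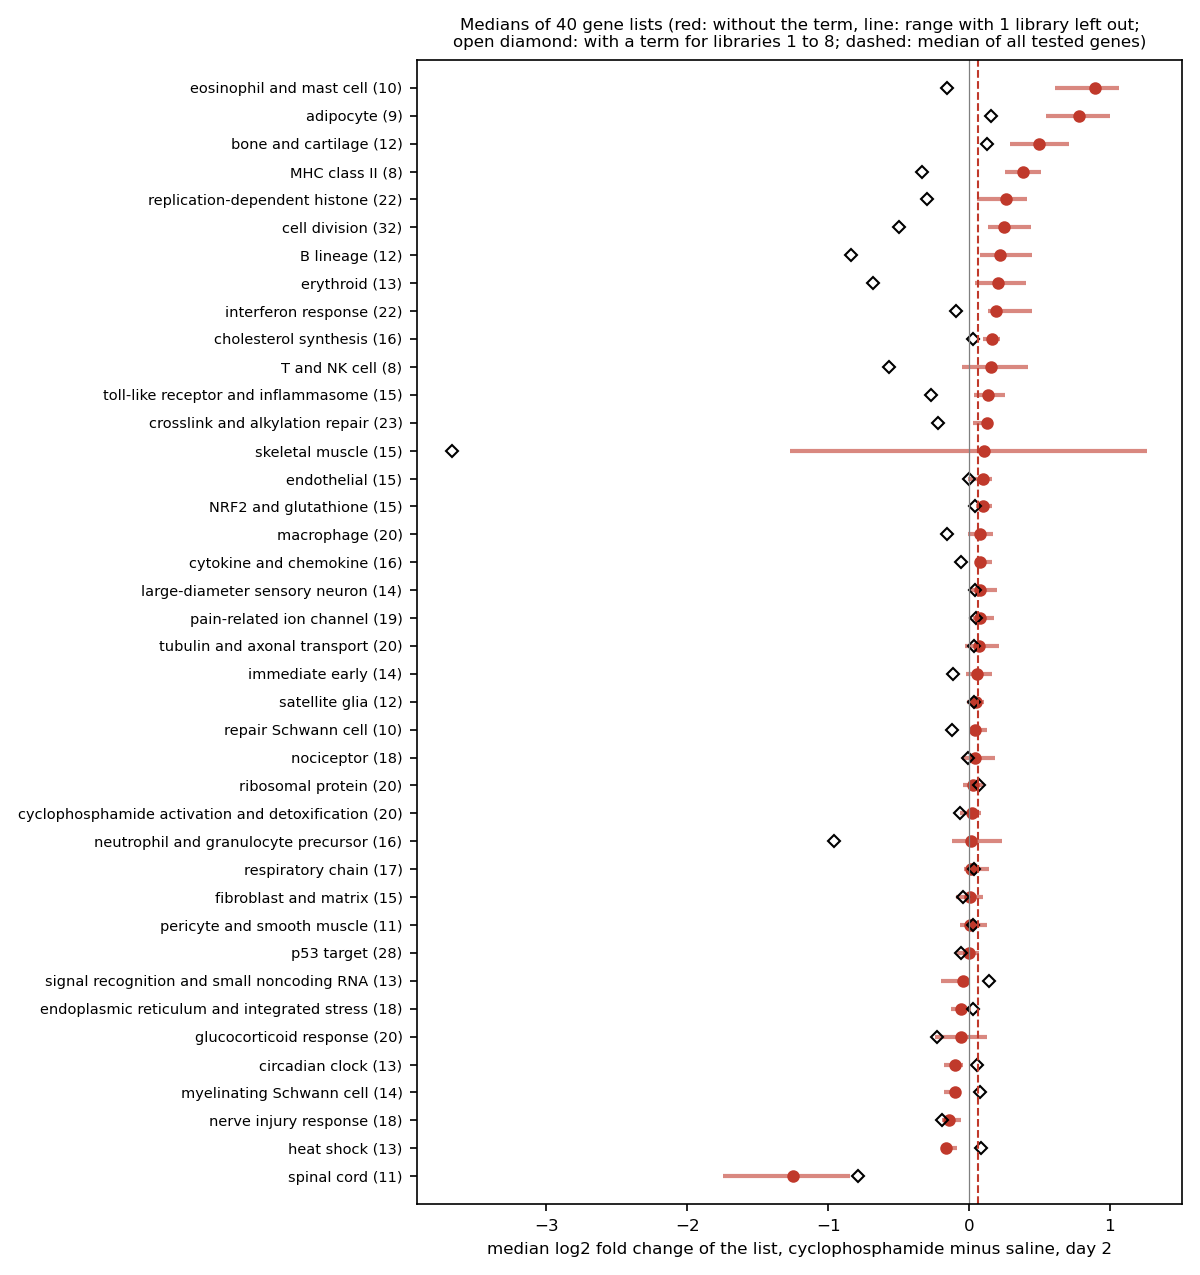
Median log2 fold change (x axis) of the tested genes of each of 40 lists (y axis, number tested in brackets), as red points, with the range over fits that leave out 1 of the 6 libraries as a red line and the value with the term for libraries 1 to 8 as an open diamond. The medians run from -1.25 (spinal cord) to 0.90 (eosinophil and mast cell) around 0.062 for all tested genes (dashed), and the diamonds of 26 lists fall on the other side of 0.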

How the data were processed

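Total RNA (60 to 80 ng) of dorsal root ganglia was depleted of ribosomal RNA and made into stranded libraries, per the labels' protocols. FastQC 0.12.1, STAR 2.7.10b and StringTie 2.2.1 are named in the submitters' processing notes without roles, with the builds mm10 and GRCm39. The authors deposited TPM per gene, so depth is unknown and no counting interval was computed. Gene starts equalled those of GENCODE M21 (GRCm38) for 1485 of 52068 shared identifiers, so table coordinates are not printed. All 30 columns were used.

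Libraries were grouped by the treatment in the labels. Genes with at least 1 TPM in at least 3 libraries were tested as log2(TPM + 1), which understates changes of low genes. In limma 3.58.1 (R 4.3.3), 10 group means were fitted over 30 libraries with a variance trend. Tests were 2-sided, with Benjamini-Hochberg adjustment over all tested genes. Library composition was compared by exact permutation. The pipeline was tested on simulated data. The members and lists were chosen with earlier results of these data known. Named genes are the called ones, the 8 of smallest p per direction (mean of at least 2 TPM, predicted models left out), 3 per list of smallest p and a fixed set; further list members were named after their values were seen, as were the 3 genes called with the term. Alternatives covered pseudocount, filters, scaling, genes, libraries, weights, controls and a term for libraries 1 to 8. Saline of day 8 alone as the control and the spinal cord score were added after the data were seen. Plots used matplotlib 3.10.9 and numpy 2.4.6.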

Additional observations from a re-analysis of the deposited data

How the results depend on the processing

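The count of 3 called genes was 0 with a pseudocount of 0.1 (limma; 1887 genes at an unadjusted p under 0.05), 0 among protein-coding genes alone (1011 genes), 5 with the 6 libraries alone, 50 with library quality weights (44 higher, 6 lower) and 0 with the spinal cord score as a covariate (1521 genes, an alternative chosen after the data were seen). It ranged from 0 to 2 when each of the 6 libraries was left out in turn. It was 2 to 4 without a filter, with a filter in the 6 libraries, with either scaling, with day 2 alone, with the term for libraries 1 to 8 and with saline of both days or of day 8 as the control. The term shared 0 of the 3 genes, and the cause of these moves was not tested. Genes called for the term itself went from 12 to 28 with the pseudocount, 171 without a filter and 5 among protein-coding genes. Genes whose day 8 and day 2 responses differed went from 0 to 2 without a filter. The difference in protein-coding share, 2.80 percentage points, ranged from 0.960 to 5.36 without 1 library. Of 145 named genes, 55 turned their sign with the term. No paired analysis was possible because the labels give no replicate numbers shared by the groups. Depth is unknown, so whether low genes such as Gm50451 and Epx lie near a counting limit was not measured.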
